A study of Rattus norvegicus with 9 samples.

Results

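The 8 genes described here mark neural progenitors and radial glia, and they were read on arrays of embryonic rat ventral spinal cord. Sox2, Pax6, Olig2, Fabp7, Slc1a3, Nes, Vim and Prom1 were chosen by name, and every probe set was taken whose platform annotation gives 1 gene symbol equal to one of them. This gave 14 probe sets out of 31042 that are not array controls, or 8 genes out of 14217 with a symbol. A probe set is a group of short probes read as 1 intensity. Sox2 had 4 probe sets, Slc1a3 had 3, Olig2 had 2 and the others had 1 each.

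Total RNA came from ventral spinal cord at embryonic day 14, and each of 9 arrays carried 1 pool of 5 embryos. In 4 pools the embryos carried a human SOD1 transgene with the mutation G93R, from animals titled Roth (mutant pools). In 4 pools they carried a human SOD1 transgene without a mutation, from animals titled Chan (wild-type pools). The remaining pool is titled SDneg and called the negative control, although its description also speaks of positive embryos. The titles of 3 mutant and 3 wild-type pools carry a tag, le2, whose meaning the labels do not give. Mutant replicate 1, wild-type replicate 1 and the negative control lack it. SOD1 codes for a superoxide dismutase, and its mutations cause a hereditary form of the motor neuron disease amyotrophic lateral sclerosis. The comparison of mutant with wild-type pools addresses what the mutation changes, but mutation, animal line and transgene insertion cannot be told apart in it. What promoter drives either transgene was not stated in the labels.

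Progenitors of the neural tube line its central canal and divide there, and later turn into radial glia, whose long processes guide migrating neurons and which go on to make astrocytes. The transcription factor Sox2 keeps such cells uncommitted, while Pax6 and Olig2 each mark a stretch of the ventral progenitor zone, and cells of the Olig2 domain give rise to motor neurons and then oligodendrocytes. Nes and Vim code for intermediate filaments of progenitors, Fabp7 for a brain fatty acid binding protein, Slc1a3 for the glutamate transporter GLAST, and Prom1 for a membrane protein of apical protrusions. Neurons lose most of these transcripts as they leave the progenitor zone. In bulk RNA, fewer cells of a type and less RNA per cell cannot be told apart.

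Upstream sequences are shown for Fabp7, Sox2 and Slc1a3, because 1 probe set of each was highest in the same pools, as described further on. Each sequence is the 250 bases before the annotated start in RefSeq on build GRCr8, read 5′ to 3′ along the gene's strand. All 8 genes had a match in the promoter table. Capitals mark CCAAT, the Sox motifs ACAAAG and ACAAT, and the TATA box TATAAA, each searched on both strands.
Fabp7, chr20:37669356-37669605, plus strand: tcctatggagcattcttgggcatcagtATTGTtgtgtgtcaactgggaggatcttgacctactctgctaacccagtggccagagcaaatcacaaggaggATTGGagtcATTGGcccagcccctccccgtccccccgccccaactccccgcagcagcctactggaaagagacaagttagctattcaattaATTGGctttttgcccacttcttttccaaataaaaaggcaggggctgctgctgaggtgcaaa
Sox2, chr2:119464881-119465130, plus strand: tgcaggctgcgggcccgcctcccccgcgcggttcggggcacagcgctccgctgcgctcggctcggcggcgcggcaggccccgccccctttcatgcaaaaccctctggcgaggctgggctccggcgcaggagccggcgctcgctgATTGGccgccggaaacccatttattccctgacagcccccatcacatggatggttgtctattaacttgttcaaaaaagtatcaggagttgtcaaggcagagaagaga
Slc1a3, chr2:59557809-59558058, minus strand, first of 3 listed starts: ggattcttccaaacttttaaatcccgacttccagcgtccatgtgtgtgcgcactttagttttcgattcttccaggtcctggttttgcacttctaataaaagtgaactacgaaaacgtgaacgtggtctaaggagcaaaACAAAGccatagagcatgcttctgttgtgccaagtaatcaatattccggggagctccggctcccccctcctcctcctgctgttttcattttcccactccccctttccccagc
The Fabp7 window held 3 CCAAT motifs and 1 ACAAT. The motif CCAAT was found in 34.3% of the 27457 gene windows of this length, and ACAAT in 29.6%. The Sox2 window held 1 CCAAT, and its GC content was 64.4% against 51.6% for Fabp7 and 48.0% for Slc1a3. The Slc1a3 window held 1 ACAAAG, present in 16.0% of all windows, and it held no CCAAT. The TATA box was in none of these 3 windows and in 13.1% of all. The Rbpj motif TGGGAA, bound by the nuclear factor of Notch signalling, was found once in the Slc1a3 window and in 21.6% of all. No motif searched was common to all 3 windows. Such matches describe letters in a window and are not binding sites.

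The arrays were of like brightness, with medians from 31.0 to 33.9, and correlated across probe sets at 0.976 to 0.986. The beta-actin 3′/5′ ratio, a measure of RNA quality, lay between 6.98 and 7.98 in mutant pools and between 8.19 and 19.2 in wild-type pools, and was 6.66 in the negative control. The highest value belonged to wild-type replicate 2. The same ratio for Gapdh lay between 2.492 and 2.587 in mutant pools and between 2.585 and 3.56 in wild-type pools. It was 2.68 in the negative control. The groups overlapped slightly on this ratio, and wild-type replicate 2 was again highest. The neuron markers Tubb3 and Dcx stood high in all pools. Tubb3, a neuronal tubulin, lay between 2641 and 3202, and Dcx, a microtubule protein of young neurons, between 3831 and 4539. Not all neuron markers did: Syt1 lay between 20.7 and 42.0, Isl2 between 29.3 and 69.6 and Chat between 104 and 180. For a background level, the 27 probe sets for Bacillus genes were used, whose highest value over all arrays was 13.4. Calls below rest on log2 intensities with a pseudocount of 8.25 added, tested by limma with Benjamini-Hochberg adjustment over 18625 probe sets above a filter of about 17.2.

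Of the 14 probe sets, 8 passed the filter and stood for 7 genes, all but Olig2. None was called in any comparison. Between mutant and wild-type pools 0 of 8 passed in limma at an adjusted p under 0.05, where 3 of all 18625 did (0.0161%). At an unadjusted p under 0.05 stood 1 of the 8, a Slc1a3 probe set, beside 923 of 18625 (4.96%). Against the negative control 0 of 8 passed, as did 0 of all 18625 (0%). At an unadjusted p under 0.05 were then 0 of the 8 and 3.12% of all with both transgenes together, 0 of the 8 and 2.29% with the mutant pools alone, and 0 of the 8 and 4.28% with the wild-type pools alone.

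**Figure D1:**
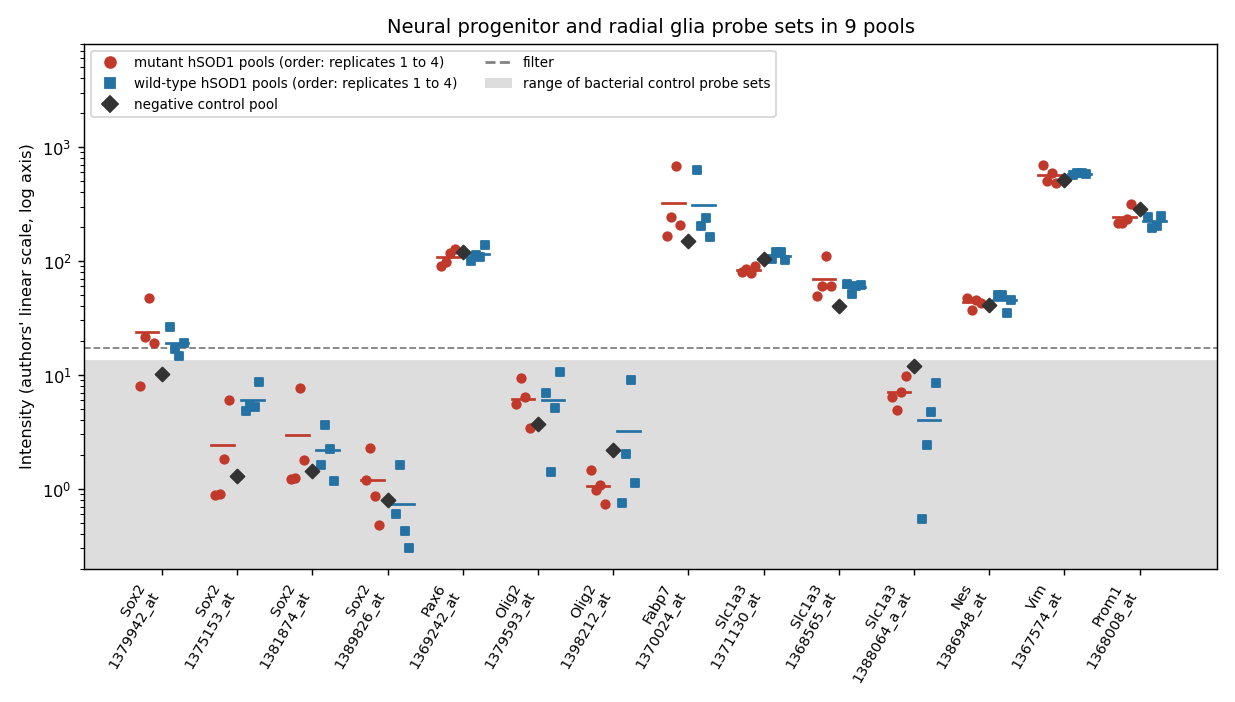
Intensity (authors' linear scale, log axis) of the 14 probe sets in 4 mutant pools (circles, replicates 1 to 4 from left to right), 4 wild-type pools (squares, same order) and the negative control (diamond). Short bars are group means, the dashed line is the filter and the grey band reaches to the highest Bacillus control value, 13.4. Fabp7 was high in mutant replicate 3 and wild-type replicate 1, and both Olig2 probe sets lay within the band.

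Among the transcription factors, Pax6 was measured well above background. Its probe set 1369242_at read 89.4, 97.8, 118 and 128 in mutant replicates 1 to 4, 99.5, 113, 107 and 137 in wild-type replicates 1 to 4, and 119 in the negative control. The groups overlapped over most of their range, and the control lay inside both. The means were 108 ± 18.0 in mutant and 114 ± 16.0 in wild-type pools (SD, n = 4 each), which put mutant minus wild-type at −0.07 in log2 (95% interval −0.37 to 0.23; limma adjusted p = 0.968).

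Sox2 was read near background. Its 1 tested probe set, 1379942_at, read 7.93, 21.5, 47.3 and 19.0 in mutant replicates 1 to 4, 26.2, 16.8, 14.8 and 18.9 in wild-type replicates 1 to 4, and 10.2 in the negative control. Mutant replicate 3 was highest and wild-type replicate 1 next, while mutant replicate 1 and the negative control lay below the highest Bacillus value. Mutant minus wild-type came to 0.11 in log2 (95% interval −0.53 to 0.75; limma adjusted p = 0.976). It was −0.20 without mutant replicate 3, 0.39 without mutant replicate 1 and 0.51 among the pools with the tag le2 in their titles (unadjusted p = 0.0830, limma adjusted p = 1.00). The 3 other Sox2 probe sets never exceeded 8.58 in any pool and have no level above background. They were 1375153_at, 1381874_at and 1389826_at.

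Olig2 had no level above background on either probe set. Probe set 1379593_at lay between 3.40 and 9.41 in mutant pools, between 1.40 and 10.5 in wild-type pools and at 3.68 in the negative control. The other, 1398212_at, lay between 0.734 and 9.01 over all 9 pools. The arrays therefore give no comparison for the gene that marks the motor neuron progenitor domain. Its relative Olig1 was likewise at or below 13.4 in every pool.

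Fabp7 varied most within the groups. Its probe set 1370024_at read 165, 241, 681 and 207 in mutant replicates 1 to 4, and 629, 202, 238 and 161 in wild-type replicates 1 to 4. The negative control read 149. A single pool of each group stood apart, mutant replicate 3 and wild-type replicate 1, and the other 6 transgenic pools lay between 161 and 241. The means were 324 ± 240.5 in mutant and 308 ± 217 in wild-type pools (SD, n = 4 each). The highest mutant pool was 4.14 times the lowest, and the highest wild-type pool 3.90 times the lowest. The pooled SD within groups was 0.86 on the log2 scale, at the 99.9th percentile of all tested probe sets, whose median was 0.18. Mutant minus wild-type came to 0.05 in log2 (95% interval −0.86 to 0.96; limma adjusted p = 0.991). It was −0.38 without mutant replicate 3 and 0.46 without wild-type replicate 1. Among the 3 pools per group with the tag le2, which the labels leave unexplained, it was 0.69 (unadjusted p = 0.0669, limma adjusted p = 1.00). Wild-type replicate 1 lacks that tag and mutant replicate 3 carries it.

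The 3 probe sets of Slc1a3 gave different pictures. On 1371130_at the mutant replicates 1 to 4 read 79.7, 85.4, 78.6 and 89.8, the wild-type replicates 1 to 4 read 103, 120, 121 and 102, and the negative control read 103. All mutant pools lay below all wild-type pools, and the negative control fell among the wild-type pools. Such a lack of overlap, lower in mutant pools, was seen at 1.25% of all tested probe sets, and in either direction at 2.96%. The means were 83.4 ± 5.21 and 111 ± 10.2 (SD, n = 4 each), apart by −0.38 in log2 (SE 0.113, 95% interval −0.63 to −0.14). The unadjusted p was 0.00481 and the limma adjusted p 0.928, so it did not pass; the adjusted p lay between 0.458 and 1.00 over the alternatives run. An exact two-sided permutation test gave p = 0.0286, the smallest that 70 arrangements allow. This value follows from the lack of overlap and adds nothing to it. The difference lay between −0.42 and −0.35 when any 1 of the 8 pools was left out, where its sign could not turn without overlap. It was −0.40 among pools with the tag le2 and −0.32 once the actin ratio entered the fit (unadjusted p = 0.0331, limma adjusted p = 1.00). The actin ratio was lower in all mutant pools than in all wild-type pools, so this covariate cannot separate RNA quality from group. The part of RNA quality in the result was not tested.

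On 1368565_at, Slc1a3 read 49.0, 59.7, 110 and 60.1 in mutant replicates 1 to 4, and 62.8, 51.2, 59.9 and 61.7 in wild-type replicates 1 to 4. The negative control read 39.98, the lowest of the 9 pools. Here the groups overlapped, and mutant replicate 3 alone stood high. Mutant minus wild-type came to 0.16 in log2 (95% interval −0.26 to 0.58; limma adjusted p = 0.950), opposite in sign to that of 1371130_at. Without mutant replicate 3 it was −0.06. The remaining Slc1a3 probe set, 1388064_a_at, lay between 0.548 and 12.1 over all pools, with no level above background. The lower values in mutant pools were thus seen on 1 of the 2 Slc1a3 probe sets above background.

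**Figure D2:**
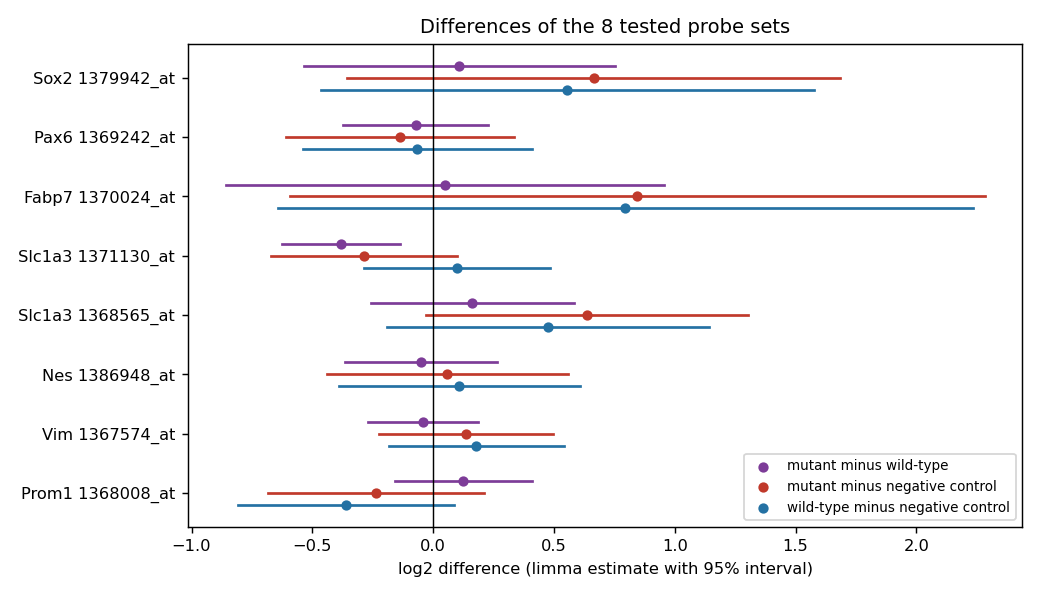
Log2 differences of the 8 tested probe sets with 95% intervals from limma, for mutant minus wild-type, mutant minus negative control and wild-type minus negative control. The interval of Slc1a3 1371130_at between mutant and wild-type pools, from −0.63 to −0.14, is the only one that leaves out 0; its adjusted p was 0.928.

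The intermediate filament genes varied about as much as other probe sets, with pooled SDs within groups at the 44.3rd percentile (Nes) and the 39.9th (Vim). Nes, read by 1386948_at, was 47.5, 37.0, 45.3 and 43.1 in mutant replicates 1 to 4, 50.1, 50.4, 35.0 and 45.4 in wild-type replicates 1 to 4, and 41.0 in the negative control. The mutant values lay inside the range of the wild-type values, which was wider. Mutant minus wild-type came to −0.05 in log2 (95% interval −0.36 to 0.26; limma adjusted p = 0.976).

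Vim, read by 1367574_at, was 692, 507, 590 and 486 in mutant replicates 1 to 4 and 572, 586, 589 and 576 in wild-type replicates 1 to 4, and 512 in the negative control. The wild-type pools lay within a factor of 1.03 of each other, while the mutant pools spread over a factor of 1.42 on both sides of them. Mutant minus wild-type came to −0.04 in log2 (95% interval −0.27 to 0.18; limma adjusted p = 0.972).

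Prom1, read by 1368008_at, was 217, 217, 231 and 313 in mutant replicates 1 to 4 and 242, 196, 204 and 246 in wild-type replicates 1 to 4. The negative control read 286. Mutant replicate 4 was the highest pool and the negative control came next. Mutant minus wild-type came to 0.12 in log2 (95% interval −0.16 to 0.41; limma adjusted p = 0.939), and 0.0036 without mutant replicate 4.

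Against the single negative control, whose own spread is unknown and was taken to be that of the transgenic pools, the genes fell on both sides. Fabp7 and Slc1a3 1368565_at were higher in 8 of 8 transgenic pools, a pattern found at 9.19% of all tested probe sets. Their log2 differences were 0.82 (95% interval −0.54 to 2.18) and 0.55 (−0.08 to 1.19), and neither passed (limma adjusted p = 1.00 for both). Sox2 1379942_at was higher in 7 of 8 pools, by 0.61 (−0.36 to 1.58). Vim was higher in 6 of 8 pools, by 0.16 (−0.19 to 0.50), and Nes in 6 of 8, by 0.08 (−0.39 to 0.56). Prom1 was higher in only 1 of 8 pools, with a difference of −0.30 (−0.72 to 0.13). Pax6 and Slc1a3 1371130_at were each higher in 2 of 8 pools, with differences of −0.10 (−0.55 to 0.35) and −0.09 (−0.46 to 0.27). The adjusted p from limma was 1.00 for each of these. The negative control lacks the tag le2, which most transgenic pools carry, so tag and transgene are partly mixed in these differences. With the tag as a covariate all kept their sign and none passed. The difference was then 1.07 for Fabp7, 0.36 for Sox2 1379942_at and −0.31 for Pax6, for example. Since the mutant and wild-type pools share this 1 control, their 2 sets of differences are not independent. Slc1a3 1371130_at differed from the control by −0.29 in mutant pools (−0.67 to 0.10) and by 0.10 in wild-type pools (−0.29 to 0.48).

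The profile of Fabp7 over the 9 pools was shared by few members. Its 2 highest pools, mutant replicate 3 and wild-type replicate 1, were also the 2 highest for Sox2 1379942_at and Slc1a3 1368565_at, although on the latter wild-type replicate 1 (62.8) was close to wild-type replicate 4 (61.7). These were 3 of the 8 tested probe sets, beside 313 of all 18625 (1.68%). Fabp7 itself set this pair of pools and so counts by choice. The pair was singled out after its values were seen, so the count is a description. Nes, Vim, Prom1, Pax6 and the other Slc1a3 probe set did not have it. Vim was 590 in mutant replicate 3 and 572 in wild-type replicate 1, close to its values elsewhere.

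**Figure D3:**
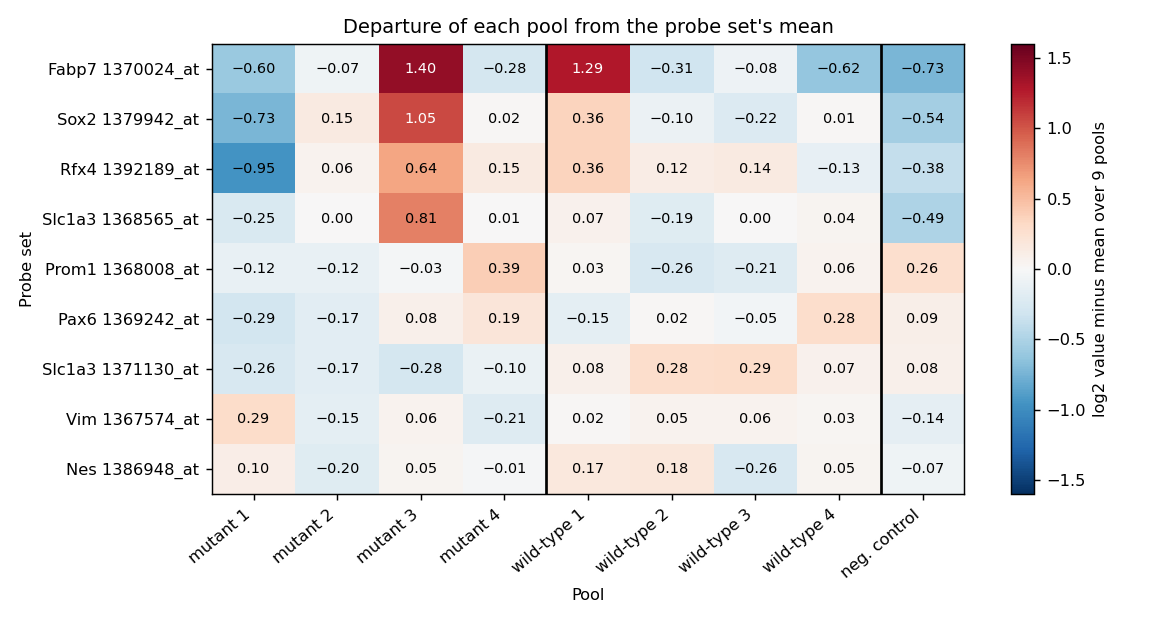
Log2 value of each pool minus the mean over all 9 pools, for the 8 tested probe sets and Rfx4, with rows ordered by their range. Fabp7, Sox2, Rfx4 and Slc1a3 1368565_at were highest in mutant replicate 3, while the remaining rows lay within 0.39 of their mean in every pool.

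For each member, the probe sets of other genes with the most similar profile were found by the root-mean-square difference between centred log2 values over the 9 pools. The gene closest to Fabp7 was Sox2, at 0.43, followed by Rfx4, at 0.51. Rfx4 codes for a transcription factor of the developing neural tube, and read 8.41, 25.4, 41.9 and 27.4 in mutant replicates 1 to 4, 33.1, 26.9, 27.3 and 21.3 in wild-type replicates 1 to 4, and 16.5 in the negative control. Its highest pools were also mutant replicate 3 and wild-type replicate 1, which largely follows from its choice by likeness over these 9 pools. The gene closest to Sox2 1379942_at was Slc1a3 through 1368565_at, at 0.23, with Rfx4 next, at 0.23. The low distance of such pairs must be read beside their own departure from the mean, 0.75 for Fabp7 and 0.49 for Sox2. Slc1a3 1371130_at was closest to Lysmd4, at 0.06, and Pdzrn4, at 0.09. Pax6 was closest to Pcdh20 and Pde9a, at 0.04 and 0.07, and Prom1 to Slc23a2 and Naa15, both at 0.06. Nes was closest to Map4k4 and Gria2, both at 0.06, and Vim to Gabarap and Trabd, at 0.05 and 0.07.

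Other progenitor genes were taken from lists, with 1 probe set per gene. Of 12 tested progenitor transcription factors, 6 were higher and 6 lower in mutant pools, with a median log2 difference of 0.01, beside 0.01 over all tested probe sets, of which 53.7% were higher. None passed. Nkx6-1, a factor of the ventral progenitor zone, averaged 145 ± 32.9 over mutant and 169.8 ± 6.03 over wild-type pools, and its relative Nkx6-2 was 140.2 ± 28.7 and 114 ± 43.1. Zeb1, a zinc finger repressor, was 411 ± 25.5 and 455 ± 71.0. Not above 13.4 in any pool were Sox1, Sox21 and Olig1. These genes did not pass the filter, nor did Foxa2, Hes5 and Id3.

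Of 15 tested radial glia and astroglial genes, 6 were higher and 9 lower, with a median of −0.01, and none passed. The array held 22 genes of this list. Gfap, Aldh1l1, Slc1a2, S100b, Hopx, Tnc and Gas1 did not pass the filter, so the counts do not cover them. Mfge8, a secreted glycoprotein, averaged 24.6 ± 5.63 over mutant and 42.8 ± 16.8 over wild-type pools (log2 difference −0.59, limma adjusted p = 0.928). Ntrk2, the receptor of the neurotrophin BDNF, was 416 ± 36.4 and 490.3 ± 85.4, and Ddah1 differed by 0.15. Ttyh1, a membrane protein of progenitors, was picked after its values were seen: it read 182 in mutant replicate 3 and 171 in wild-type replicate 1, its 2 highest pools, and 111 to 169.6 in the others. Ttyh1 was the only one with that order among the 14 genes in the list that also passed the filter over all 9 pools. Over all tested probe sets, 1.68% had it.

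Of 5 tested neurogenic and Notch genes, 4 were higher and 1 lower, with a median of 0.06. The array held 10 genes of this list, and Notch1, Notch2, Dll3, Neurog1 and Neurog2 did not pass the filter. None passed, and 3 had an unadjusted p under 0.05, as did 4.96% of all tested probe sets. With 5 genes, such counts are a description only, and 53.7% of all probe sets were higher in mutant pools. Notch3, a Notch receptor, averaged 36.4 ± 14.6 over mutant and 19.3 ± 5.51 over wild-type pools, with a log2 difference of 0.66. Dll1, a Notch ligand of newborn neurons, was 60.1 ± 2.35 and 48.1 ± 3.63, with a difference of 0.28 and no overlap of the groups. A lack of overlap with higher mutant pools was found at 1.71% of all tested probe sets. Neurod1, a factor of differentiating neurons, was 292 ± 31.5 and 367 ± 61.6, with a difference of −0.31. The limma adjusted p was 0.928 for each.

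Of 10 tested cell cycle genes, 4 were higher and 6 lower, with a median of −0.02, and none passed. The list held 17, and Mki67, Top2a and Cdk1 were among those that did not pass the filter. Ccna2 and Cdk1 were not above 13.4 in any pool. Ccnd1, the cyclin of the first gap phase, read 18.6, 33.6, 46.5 and 33.3 in mutant replicates 1 to 4 and 50.6, 7.26, 4.56 and 20.4 in wild-type replicates 1 to 4. The 2 lowest of these lay under the background level of 13.4. Its 2 highest pools were wild-type replicate 1 and mutant replicate 3. The same pair was highest for 1 of the 10 cell cycle genes, Ccnd1 itself, and for 0 of the 12 progenitor factors. It was highest for 0 of the 5 neurogenic and Notch genes and 0 of the 17 neuron markers, beside 1.68% of all tested probe sets. With so few genes, these counts are a description only. Aurka, a mitotic kinase, averaged 33.7 ± 7.84 over mutant and 24.4 ± 8.14 over wild-type pools, and Cdc20 differed by −0.22. Over the 17 neuron markers, 10 were higher and 7 lower in mutant pools, with a median of 0.03, and the motor neuron factor Isl1 had the smallest p (log2 difference 0.45, limma adjusted p = 0.928).

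**Figure D4:**
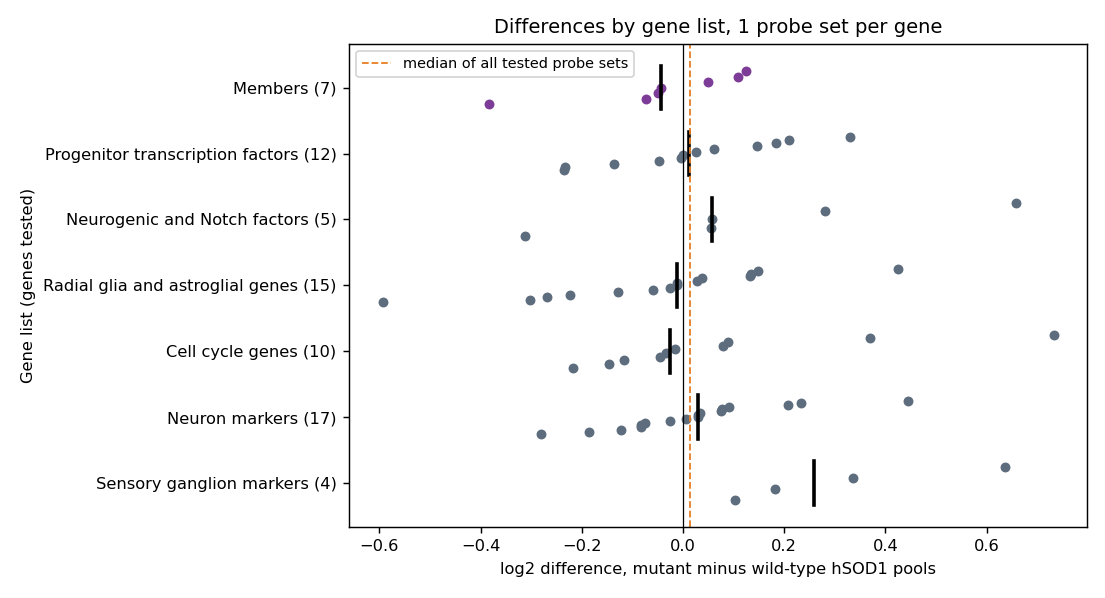
Log2 differences between mutant and wild-type pools for the tested genes of 7 lists, 1 probe set per gene (points), with the median of each list (bar) and of all tested probe sets (dashed line, 0.01). The members' median was −0.04, with 3 of 7 genes higher.

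Markers of other cells that a ventral cord dissection could hold were read for the same pools. Sensory ganglion markers summed to 6458 in mutant replicate 3 and 4947 in wild-type replicate 1, against 5157 to 7702 in all mutant and 4947 to 5534 in all wild-type pools. Most of each sum came from Sncg (2614 to 4433 over all pools) and Prph (1847 to 2985). The sum thus reads mainly these genes and is no measure of ganglion cells. Runx3 did not pass the filter. Whether ganglion tissue was in the pools was not tested. All 4 tested genes of this list were higher in mutant pools, where 53.7% of all tested probe sets were. Runx1 was higher by 0.64 and Sncg by 0.34 (limma adjusted p = 0.928 for both). None of the 4 passed the threshold, and Tlx3 was not above 13.4. Schwann and neural crest markers summed to 669.9 in mutant replicate 3 and 795 in wild-type replicate 1, within the 568 to 818 of all pools, with Foxd3 not above 13.4. Most of each sum came from Tfap2b (486 to 716 over all pools), while Sox10, Erbb3 and Egr2 did not pass the filter. It thus reads mainly Tfap2b and is no measure of Schwann or crest cells. For endothelium and pericytes the sums were 118 and 112, where all pools spanned 92.8 to 118. They were the highest of their groups, but mutant replicate 1 (116) and wild-type replicate 2 (111) were close. Only Tek, Esam and Rgs5 of this list passed the filter, and Pecam1, Kdr, Tie1 and Pdgfrb were not above 13.4. Mesenchyme sums were 176 and 157 within 151 to 251, with Col1a2, Dcn, Twist1 and Prrx1 not above 13.4. Blood markers summed to 143 in mutant replicate 3, the highest pool, and 41.0 in wild-type replicate 1, with the embryonic globin Hbe1 at 94.5 and 6.71. Alas2 and Hbb were not above 13.4. Microglia sums were 43.8 and 67.3 within 36.5 to 68.0, with Ptprc and Itgam not above 13.4. None of the microglia markers passed the filter. Muscle sums were 156 and 118 within 118 to 190.4, with Myod1, Myh3 and Tnnt2 not above 13.4. Oligodendrocyte precursor markers summed to 43.9 and 27.6 within 20.4 to 43.9, with Pdgfra not above 13.4 and none of them past the filter. Floor and roof plate markers summed to 98.4 and 100.03 within 83.0 to 144, with Shh and Rspo1 not above 13.4. The part of other cells in the Fabp7 values was not tested.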

How the data were processed

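The deposited values are linear intensities, 1 for each probe set in each pool. The labels name no software. A common scaling by the authors shows in the deposited intensities themselves: trimmed of the lowest and highest 2%, each array averages about 150.05. Intensities were taken to log2 after a pseudocount of 8.25 (the 25th percentile). The 57 control probe sets and those at or under the 40th percentile of the mean were left out, which left 18625. Probe sets were named from the platform annotation; the 8 members matched the gene table of GRCr8 by identifier and symbol. Each comparison was fitted with limma 3.58.1 in R 4.3.3 (intensity trend, Benjamini-Hochberg, threshold 0.05), mutant against wild-type on 8 arrays and against the negative control on 9; the script was tested on simulated data. The number of arrays limits the precision. Each p-value sets a difference against the spread between pools, as estimated by limma with its intensity trend.

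All probe sets of the members were described. From each gene list, the 3 genes with the smallest p were eligible as examples, and likeness was given for the 2 nearest genes. Members, lists and alternatives were chosen with earlier results of these data known. Alternatives covered normalization, pseudocount, filter, variance model, the tag le2, the actin ratio, a replicate block and leaving out each pool.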

Additional observations from a re-analysis of the deposited data

Results flagged for a closer look

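In each group of 4 pools, the gap between the most extreme pool and its neighbour was divided by the group's range, and values above 0.829 were marked. This was done for 14 probe sets and 2 RNA quality ratios in both transgenic groups, 32 groups in all; chance alone marks about 1 in 20. Of them 6 were marked. Among all tested probe sets, 5.18% were past this limit in mutant and 5.16% in wild-type pools. Fabp7 was marked in both groups, at 681 in mutant replicate 3 and 629 in wild-type replicate 1. Prom1 was marked at 313 in mutant replicate 4. Sox2 1381874_at at 7.60 in mutant replicate 3 and Olig2 1398212_at at 9.01 in wild-type replicate 3 lay within the range of the Bacillus control probe sets. The actin 3′/5′ ratio was marked at 19.2 in wild-type replicate 2.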

How the results depend on the processing

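No member probe set passed under any alternative run, in either comparison. All 149 recomputed log2 differences against the negative control kept their sign. Of 174 between mutant and wild-type pools, 15 changed sign, none for Slc1a3 1371130_at, which ranged from −0.42 to −0.31, or for Prom1. With array weights Fabp7 was −0.12 and Vim 0.0047; with the actin ratio as a covariate Fabp7 was −0.074 and Nes 0.027. Leaving out 1 pool, the differences ranged from −0.38 to 0.46 for Fabp7, −0.20 to 0.39 for Sox2, −0.059 to 0.29 for Slc1a3 1368565_at, −0.15 to 0.012 for Pax6, −0.15 to 0.011 for Nes and −0.14 to 0.026 for Vim. Why the signs turned was not tested, beyond the pools named above. Over all probe sets, mutant against wild-type gave 3 calls, but 5 with median centring, 1 without a filter or with the tag le2 as a covariate, and 0 without an intensity trend, with the actin ratio or without the arrays lacking the tag (996, 681 and 675 at an unadjusted p under 0.05 in limma). Leaving out 1 pool gave 1 to 3, with 1 call without mutant replicate 1, wild-type replicate 1 or wild-type replicate 3. Against the negative control there were 0 calls, but 1 with median centring or a pseudocount of 2.06 for both transgenes and for wild-type pools, and 1 with that pseudocount for mutant pools; leaving out 1 pool gave 0 to 1 for both transgenes and for wild-type pools, the 1 without wild-type replicate 1. Replicate numbers share only a number: deviations of same-numbered pools correlated at −0.08 to 0.20 over probe sets, 2 of 4 best with their own number, and a replicate block left 3 calls, none of a member. Filtering at the 60th percentile left Sox2 and Nes untested in both comparisons, and Slc1a3 1368565_at against the negative control. For Olig2 and most Sox2 probe sets, signal over background is the limit.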
